A study of Rattus norvegicus with 2 samples.

Results

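The 10 genes described here carry out or sense the transcellular transport of calcium and magnesium in the distal nephron. They are the channel genes Trpv5, Trpv6 and Trpm6, the calcium-binding protein genes Calb1, S100g and Pvalb, the exchanger and pump genes Slc8a1, Atp2b1 and Atp2b4, and the calcium-sensing receptor gene Casr. They were chosen by name among the 22093 gene symbols that have a probe set of their own on the array, and each of the 10 has exactly 1 such probe set. Both arrays carried whole-kidney RNA of male Dahl salt-sensitive rats (strain label Dahl-S), obtained at 3 weeks of age and kept on chow with 8% NaCl for 4 weeks. One array held RNA of 3 such rats (DSH), and the other held RNA of 3 rats whose high-salt chow also contained 25 mg of sucroferric oxyhydroxide per g from 1 week after the start of the salt (DSH+2.5%SF). Sucroferric oxyhydroxide (SF) is an iron-based drug that binds phosphate in the gut. The chow of both groups held 0.5% calcium and 0.3% phosphorus. The labels name the pools control and 2.5%SF, and the diet is taken from the methods. The animals of each pool were mixed before hybridization, so there is 1 value per gene and group, no replicate error and no p-value, and an effect of SF and variation among the pooled rats cannot be told apart.

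In the distal convoluted tubule and the connecting tubule, calcium crosses the cell in 3 steps, which are entry from the urine through a channel in the apical membrane, passage through the cytosol bound to calcium-binding proteins, and exit to the blood side through a sodium-calcium exchanger and calcium pumps. Magnesium enters the same cells through the channel TRPM6. Parathyroid hormone and active vitamin D raise the transcellular transport of calcium, and the calcium-sensing receptor adjusts the paracellular route in the thick ascending limb to the calcium level of the blood.

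Of these genes Calb1 stood apart. Readings are RMA intensities in arbitrary units of the array, and "with SF" stands for the DSH+2.5%SF pool. Calb1 read 10832 in DSH against 27005 with SF, which is 2.49-fold higher with SF. In whole-kidney RNA a higher level of a gene in each cell and more cells of that type cannot be told apart. Calb1 was the only one of the 10 genes past the criteria used in the study. These were a Z-score of at least 2.0 and a ratio of at least 1.5 for a higher level, or a Z-score of at most −2.0 and a ratio of at most 0.66 for a lower level. None of the 10 was lower by the criteria. The same criteria called 1.09% of all genes higher and 1.36% lower (2.79% and 2.2% of all probe sets). The Z-score is the log2 ratio of DSH+2.5%SF over DSH minus its mean over all probe sets (0.03), divided by its SD (0.34), so that a gene had to be 1.63-fold higher or 1.57-fold lower to pass. Slc8a1, Trpv5 and Casr had log2 ratios of 0.60, 0.42 and 0.34 without passing. The other 6 genes lay between −0.15 and 0.15. Over the 10 genes, 6 log2 ratios were above 0, 2 were below 0 and 2 were exactly 0, with a median of 0.08. Over all genes the median was 0, with 43.4% above and 47.5% below 0.

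**Figure D1:**
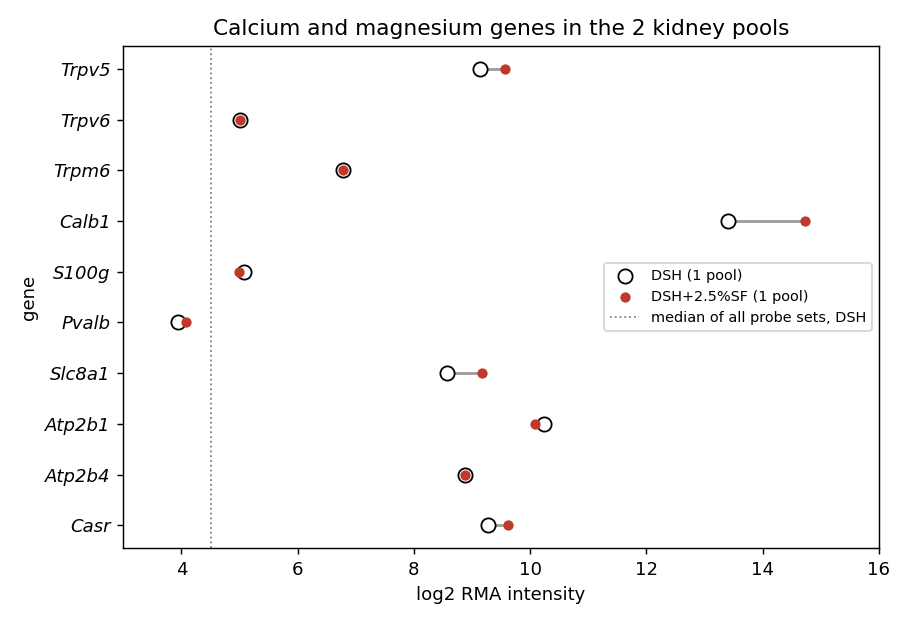
Log2 RMA intensity (x axis) of the 10 genes (y axis) in the DSH pool (open circles) and the DSH+2.5%SF pool (filled circles), 1 array each, with the median of all probe sets in DSH as a dotted line. Calb1 shows the widest gap (13.40 and 14.72), and Pvalb alone lies below the median; positions of different genes come from different probes and are not comparable as amounts.

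Trpv5 and Trpv6 encode the closely related apical calcium channels of this route, of which TRPV5 is the one known for renal reabsorption and TRPV6 is best known from the intestine. They are neighbors in the rat genome, with 0 annotated genes between them on chromosome 4 of the RefSeq assembly GRCr8. The log2 ratios were 0.42 for Trpv5 and 0 for Trpv6, and neither gene passed the criteria. With 1 array per group, whether these ratios differ was not tested, and the sequences do not bear on it. The 250 bases before 1 annotated start of each gene were taken from RefSeq. Capitals mark AGGTCA, a half-site bound by nuclear receptors such as the vitamin D receptor. The search for it covered both strands. The Trpv5 window lies inside the annotated span of its gene, so transcripts with another start may cross it, whereas the Trpv6 window lies outside its gene.
Trpv5, chr4:71529383-71529632, minus strand: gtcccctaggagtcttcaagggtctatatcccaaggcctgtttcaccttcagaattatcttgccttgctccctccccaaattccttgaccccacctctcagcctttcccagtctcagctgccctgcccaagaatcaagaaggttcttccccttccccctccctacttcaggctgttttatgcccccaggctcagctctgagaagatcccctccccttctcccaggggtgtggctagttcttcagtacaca
Trpv6, chr4:71489668-71489917, minus strand: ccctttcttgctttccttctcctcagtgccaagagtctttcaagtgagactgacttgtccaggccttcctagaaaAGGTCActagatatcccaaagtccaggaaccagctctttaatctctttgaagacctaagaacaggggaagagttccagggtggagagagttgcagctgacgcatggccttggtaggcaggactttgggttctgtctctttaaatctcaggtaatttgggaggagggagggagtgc
The half-site of Trpv6 begins 175 bases before the start. Of the 8 genes with an entry in the RefSeq promoter table, 2 held AGGTCA in this window, Trpv6 and Casr, and 14.1% of all 33469 windows of that length held it. No window of the 8 genes held a direct repeat of AGGTCA spaced by 3 bases, which was found in 7 of all windows. These matches describe only the letters of the windows. Calb1 and S100g have no entry in the table.

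Among the entry channels, Trpv5 read 566 in DSH against 759 with SF, which is 34.1% higher with SF. Its Z-score was 1.16, below the limit. Trpv6 was listed at 32.2 in both pools, and Trpm6, the gene of the apical magnesium channel, at 110 in both pools, so that both log2 ratios were exactly 0. Equal intensities were held by 9.13% of all genes. Trpv5 and Trpv6 are close paralogs, and whether their probes bind each other's transcripts was not tested.

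Among the calcium-binding proteins, Calb1 encodes calbindin-D28k, the calcium buffer and shuttle of the distal convoluted and connecting tubules. Its log2 intensity was 13.40 in DSH against 14.72 with SF, a difference of 1.32 with a Z-score of 3.81. By the size of its ratio it was the 13th highest of the 22093 genes. The log2 ratios spread more among bright probe sets than over the whole table, with an SD of 0.53 among the 1000 probe sets nearest to Calb1 in brightness. The Z-score computed among those probe sets was 2.58, and the gene passed with it as well. That brightness-matched score called 1.05% of all genes higher and 0.883% lower. S100g, which encodes the smaller calbindin best known from the intestine, had intensities of 33.9 in DSH against 31.7 with SF, a log2 ratio of −0.09. Pvalb, which encodes parvalbumin, a marker of the early distal convoluted tubule in rodents, had 15.3 in DSH against 17.0 with SF, a log2 ratio of 0.15. The Pvalb probe set was dimmer than the median probe set, whose intensity was 22.9 in DSH against 23.7 with SF, and its ratio has little weight. Thus 1 of the 3 calcium-binding protein genes was higher by the criteria, and the other two differed little between the pools at low intensity.

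Among the exit genes, Slc8a1, which encodes the sodium-calcium exchanger NCX1 of the basolateral membrane, read 379 in DSH against 575 with SF. This 1.52-fold higher level reached the ratio criterion and not the Z-score criterion (1.68). With the ratio criterion alone Slc8a1 would count as higher, and that criterion alone called 1.98% of all genes higher and 1.83% lower. Atp2b1, the gene of the plasma membrane calcium pump PMCA1, was at 1208 in DSH against 1090 with SF, 1.11-fold lower, with a Z-score of −0.53. Atp2b4, the gene of the related pump PMCA4, was at 468 and 471, a log2 ratio of 0.01. Of the 3 exit genes 2 thus had log2 ratios above 0 and 1 had a log2 ratio below 0, and no exit gene passed the criteria. Slc8a1, Atp2b1 and Atp2b4 are also expressed outside the distal nephron, including smooth muscle. Of 7 smooth muscle markers 1 was lower by the criteria (Tagln), against 1.36% of all genes, and the median log2 ratio was −0.09. The summed intensity of the list was 3978 in DSH against 2926 with SF, of which Acta2 gave 2663 and 1995. Readings of different probe sets are not comparable as amounts. The part of vascular cells in the readings of the exit genes was not tested.

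Casr, the calcium-sensing receptor gene of the thick ascending limb and of other segments, read 622 in DSH against 788 with SF, 26.7% higher, with a Z-score of 0.92. It did not pass the criteria. The claudin genes of the paracellular calcium and magnesium route did not either. Cldn16, a subunit of the cation pore, had a log2 ratio of 0.16, its partner Cldn19 had −0.45 at intensities of 246 and 180, and Cldn14, which closes that pore under the control of the calcium-sensing receptor, was dim at 13.3 and 17.7. The sodium-potassium-chloride cotransporter gene Slc12a1, whose activity sets up the voltage of this route, had a log2 ratio of −0.43. None of the 7 measured genes of the paracellular list passed, and their median was −0.26.

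**Figure D2:**
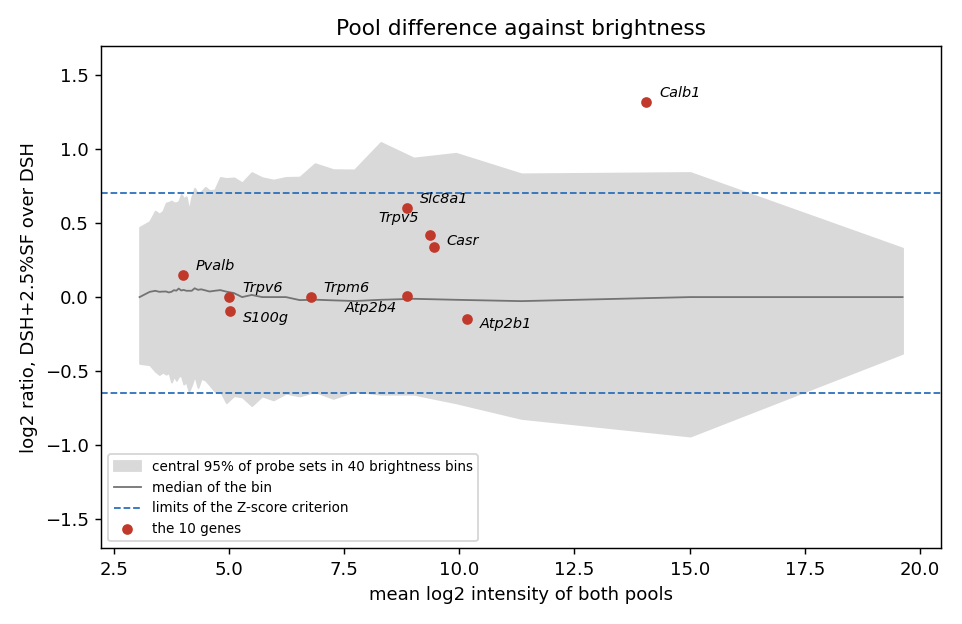
Log2 ratio of DSH+2.5%SF over DSH (y axis) against the mean log2 intensity of both pools (x axis) for the 10 genes (points), over the central 95% of all probe sets in 40 bins of equal size (gray band) and their median (line); dashed lines mark the Z-score limits. Calb1 (1.32) lies above the band, and the other 9 genes lie inside it, Slc8a1 (0.60) nearest below the upper limit.

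The other genes of the segments that use Calb1 were read beside it. Of 10 genes listed for the distal convoluted tubule none met the criteria. Their log2 ratios had a median of −0.02 and lay between −0.30 and 0.18. How specific these genes are to the segment was not tested, and some of them read near the median of the array. Slc12a3, the thiazide-sensitive cotransporter gene that defines this segment, was at 6824 in DSH against 6487 with SF. The summed intensity of this list was 60626 in DSH against 63774 with SF. Of this sum 31889 and 35251 came from Egf, which is also in the thick ascending limb list. The highest log2 ratio in the list was 0.18, that of Cul3. Of 11 connecting tubule and principal cell markers none was higher and 1 was lower by the criteria, the basolateral water channel gene Aqp3 (660 in DSH against 330 with SF). Their median was −0.17, and their log2 ratios ran from that of Aqp3 up to 0.50. The sodium channel subunit genes Scnn1a and Scnn1g had log2 ratios of 0.50 each and Scnn1b had −0.39. Klk1, the kallikrein gene of the connecting tubule, had 0.39. The summed intensity of this list was 66813 in DSH against 85305 with SF, most of it from Klk1 and the potassium channel gene Kcnj1. Kcnj1, which is also in the thick ascending limb list, read 44846 in DSH against 59027 with SF. Such a sum adds readings of different probe sets, which are not comparable as amounts. Of the 11 log2 ratios 7 were below 0 and 4 above. No listed marker was at 0 in either pool, which holds for every probe set, since the lowest intensities were 3.89 in DSH and 4.20 with SF. The part of a changed share of distal convoluted or connecting tubule cells in the Calb1 reading was not tested.

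The other cell type lists held at most 1 gene each past the criteria, which called 1.09% of all genes higher and 1.36% lower. Of the 122 genes in all lists besides the 10, each counted once, 3 were higher and 8 lower. Of 10 intercalated cell markers Foxi1, the transcription factor gene of these cells, was 1.71-fold higher, and the median of the list was 0.14. Of 8 thick ascending limb markers none passed, and the prostaglandin receptor gene Ptger3 had the lowest log2 ratio, −0.56. Of 11 proximal tubule markers the water channel gene Aqp1 was 1.73-fold lower and the median was 0. Of 8 measured erythroid markers Hbb and of 10 macrophage markers C1qa were lower by the criteria, with list medians of −0.14 and −0.18. With the brightness-matched Z-score, the calls of Aqp1 (−1.42), Tagln (−1.90), Hbb (−1.94) and C1qa (−1.83) were lost and those of Foxi1 (2.06) and Aqp3 (−2.56) were not. The call of Foxi1 was lost when dim probe sets were left out, and neither Foxi1 nor Aqp3 passed when a ratio of 2 (higher) or 0.5 (lower) was required.

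Genes that act on the transport route went both ways. Of 12 measured genes whose products bind TRPV5 or set its surface level, 2 passed on the higher side and 2 on the lower side. The median of the list was −0.17. Over all genes the criteria called 1.09% higher and 1.36% lower. Sgk1, a kinase gene of the aldosterone response whose product raises the surface level of TRPV5, read 443 in DSH against 929 with SF, 2.10-fold higher. Kl, the gene of klotho, the co-receptor of FGF-23 that also holds TRPV5 at the cell surface, was at 13961 in DSH against 22855 with SF, 1.64-fold higher. Its Z-score was 2.01 over all probe sets and 1.45 when matched for brightness, with which the call was lost, as it was with dim probe sets left out. S100a10 and Anxa2 encode the partner proteins that carry TRPV5 and TRPV6 to the membrane. S100a10 fell in intensity from 4655 in DSH to 2318 in DSH+2.5%SF, 2.01-fold lower, and Anxa2 from 3910 to 1825, 2.14-fold lower. Both products act in many cell types besides the distal tubule. Umod, the gene of uromodulin, which keeps TRPV5 at the surface from the urinary side, was listed at the same intensity in both pools (469762).

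Of 9 genes of vitamin D and parathyroid hormone signaling, 1 was higher and 1 was lower by the criteria, against 1.09% and 1.36% of all genes. Cyp24a1, the gene of the enzyme that inactivates active vitamin D, read 101 in DSH against 50.6 with SF, 2.0-fold lower, with a Z-score of −3.04 and a brightness-matched one of −2.74, just short of a ratio of 0.5. Kl, which is also counted in the TRPV5 list, was the higher gene. Vdr, the vitamin D receptor gene, had a log2 ratio of 0.24 and the parathyroid hormone receptor gene Pth1r had −0.07. Cyp27b1, whose enzyme makes active vitamin D, was dim at 13.4 and 13.9. Calb1 and Cyp24a1 are both known targets of the vitamin D receptor, and their readings differed in opposite directions between these pools. The part of vitamin D or of other hormones in either reading was not tested.

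**Figure D3:**
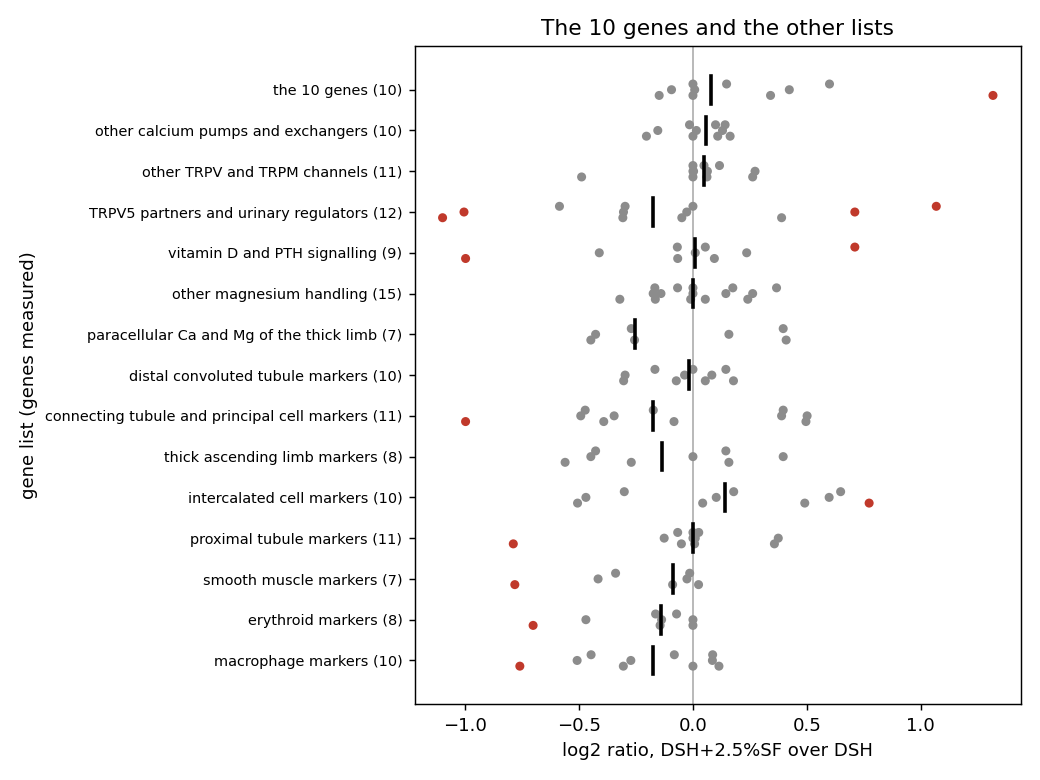
Log2 ratio of DSH+2.5%SF over DSH (x axis) for every measured gene of each list (y axis, number of genes in parentheses); vertical bars are list medians, and red points are genes past the Z-score and ratio criteria. Among the 10 genes 1 point, Calb1, is red, while the list of TRPV5 partners holds 2 red points on either side of 0; some genes stand in more than 1 list.

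Of 10 other calcium pumps and exchangers none met the criteria, and all had log2 ratios between −0.20 and 0.16. Atp2a2, the gene of the calcium pump of the endoplasmic reticulum, had intensities of 7427 in DSH against 6673 with SF. None of 11 other TRPV and TRPM channel genes passed. Trpv4, the gene of an osmotically gated channel, was the lowest of them at −0.49, with 197 in DSH against 140 with SF. Trpm7, the gene of the ubiquitous magnesium channel that assembles with TRPM6, had a log2 ratio of 0.26.

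Of 15 measured genes of renal magnesium handling besides Trpm6, none passed the criteria and the median log2 ratio was 0. Egf, whose product stimulates TRPM6, was at 31889 in DSH against 35251 with SF on the brightest of its 3 probe sets. Cnnm2, which is needed for basolateral magnesium transport in the distal convoluted tubule, was at 181 and 180. Kcnj16, a subunit gene of the basolateral potassium channel of this segment, had the highest log2 ratio of the list, 0.37, and Slc41a3 had the lowest, −0.32. Neither Trpm6 nor the other magnesium genes thus passed the criteria, which called 1.09% of all genes higher and 1.36% lower. Calb1 alone passed among the calcium genes named at the outset, and none of the other calcium pumps and exchangers did. Whether calcium and magnesium genes differ as groups was not tested.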

How the data were processed

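Whole-kidney RNA was measured on 2 Clariom D rat arrays, 1 per group, each hybridized with RNA pooled from 3 rats. The deposited values are intensities on a linear scale that the authors computed with RMA in Affymetrix Expression Console 1.4.1, per the submitters' processing notes. This method subtracts background, brings the arrays to a common distribution and gives 1 value per probe set. For the probe sets, no genome build is named in the sources used here. Log2 ratios and Z-scores were computed for all 68842 probe sets, of which 23446 have 1 gene symbol in the platform annotation. A gene was read on its brightest probe set. Of the listed genes, 7 symbols had no probe set of their own. The thresholds are those of the study's methods, which do not say how the Z-score was computed. Every one of the 10 genes is named, and of each other list mainly the genes past the criteria and up to 4 with the largest log2 ratios above median brightness. Cldn14, Cldn16, Slc12a3, Scnn1b, Klk1, Umod, Pth1r, Cyp27b1, Cnnm2 and Slc41a3 were added after their values were seen, for their roles or as extremes of a list. The genes and lists were chosen with earlier results of these data known. The number of arrays limits the precision. The code that makes the calls was tested on simulated data with known differences. Calculations ran in Python 3.11.15 with pandas 2.3.3 and numpy 2.4.6, the loess trend in statsmodels 0.14.6, and plots in matplotlib 3.10.9.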

Additional observations from a re-analysis of the deposited data

How the results depend on the processing

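No paired analysis was possible because each group is 1 array, and no replicate could be left out. Each of the 10 genes has 1 probe set, so no other probe set could be tried, and a mean over probe sets could not change their values. The alternatives tried were the brightness-dependent Z-score, other ratio criteria, median centring, quantile normalization, a subtracted loess trend, a filter on dim probe sets and a pseudocount of 16. Under these alternatives Calb1 passed each time, with log2 ratios of 1.31 to 1.38. The call of Slc8a1 changed with the ratio criterion alone, which made 2 of the 10 genes higher. None of the 10 was lower under any of them, and the median of the 10 genes ran from 0.01 with dim probe sets left out to 0.08. Among all probe sets the criteria called 1921 higher and 1515 lower. The ratio criterion alone gave 3307 higher, and ratios of at least 2 or at most 0.5 gave 575 and 287. Without the probe sets under the median brightness 1031 and 668 passed among fewer tested, and 1 probe set per gene gave 241 and 301. A pseudocount of 16 gave 1338 higher and 822 lower. Adding 16 to both pools shrinks the ratios of dim probe sets by arithmetic. How many of the lost calls were of dim probe sets was not tested. Little weight was put on the ratios of signals near the median of the array, such as those of Pvalb, S100g and Trpv6. Log2 ratios spread less among probe sets of their brightness (SDs of 0.29, 0.35 and 0.36) than at that of Calb1 (0.53). With 1 array per group the precision of a single ratio was not measured.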

Other observations

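Exactly equal intensities in both pools, as listed for Trpv6 and Trpm6, were not spread evenly over the array. They made up 7.46% of all 68842 probe sets and 53.4% of the 2373 probe sets with a mean log2 intensity of 16 or more. In 4 bins of equal size from dim to bright the shares were 6.77%, 6.60%, 5.74% and 10.7%. Trpv6 lies in the third of these bins and Trpm6 in the fourth, and a log2 ratio of 0 for them states that the deposited values are the same.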
